A study of Mus musculus with 8 samples.

Results

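Interferon gamma, the cytokine that activated CD8 T cells release, was followed here at the level of its transcript together with the machinery that receives it. Followed were the cytokine gene Ifng, the receptor chain genes Ifngr1 and Ifngr2, and the kinase genes Jak1 and Jak2. The transcription factor gene Irf1 and the inhibitor genes Socs1 and Ptpn2 completed the 8 genes. They were chosen by symbol and role out of the 41730 rows of the deposited count table, at a time when results of the same comparison were known. Their changes with treatment are therefore given as a description, with no p-value. All 8 symbols were found, none had a numbered copy row, and all passed the filter on low counts.

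The cells were OT-I CD8+ T cells of the mouse, which carry a transgenic T cell receptor for the ovalbumin peptide SIINFEKL. They had been cultured with peptide-pulsed dendritic cells grown from bone marrow that lacked the liver X receptors (LXR-/- BMDCs), and were then purified by FACS. Cultures of the first group held 2 µM RGX-104, a synthetic agonist of LXR (4 libraries), and control cultures held the solvent DMSO (4 libraries). Both groups shared the LXR-/- dendritic cells, the OT-I genotype and the peptide, so the missing receptor was a property of the presenting cells and not of the sequenced ones. The labels state neither the length of the culture nor how many mice or cultures stood behind the libraries. P-values below measure only the spread between these libraries, which may be technical.

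Interferon gamma is made by T cells and natural killer cells once their antigen or cytokine receptors are engaged. It acts on the same cell or its neighbours through a receptor of IFNGR1, which binds the cytokine, and IFNGR2, which is needed for signalling. IFNGR1 carries the kinase JAK1 and IFNGR2 carries JAK2. The signal of these kinases reaches the nucleus and acts at gamma-activated sequences, switching on Irf1 among other genes. SOCS1 blocks the kinases, and the phosphatase PTPN2 removes phosphate from JAK1. Irf1 and Socs1 are thus textbook targets of the pathway as well as parts of it.

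The 3 windows printed here belong to the cytokine and to these target genes, since they held the interferon-linked motifs searched for. Each is the 250 bases before the RefSeq start of the gene in GRCm38, read 5′ to 3′ on the strand of the gene, with motif letters in capitals. The Ifng window lies at chr10:118440796-118441045 on the plus strand, the Irf1 window at chr11:53769764-53770013 on the plus strand and the Socs1 window at chr16:10785537-10785786 on the minus strand.
Ifng: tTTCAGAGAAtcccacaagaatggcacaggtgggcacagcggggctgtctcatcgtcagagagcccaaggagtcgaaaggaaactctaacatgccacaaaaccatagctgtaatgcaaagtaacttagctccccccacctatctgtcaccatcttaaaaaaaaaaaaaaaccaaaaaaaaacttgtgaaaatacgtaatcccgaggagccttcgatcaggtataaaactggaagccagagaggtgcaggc
Irf1: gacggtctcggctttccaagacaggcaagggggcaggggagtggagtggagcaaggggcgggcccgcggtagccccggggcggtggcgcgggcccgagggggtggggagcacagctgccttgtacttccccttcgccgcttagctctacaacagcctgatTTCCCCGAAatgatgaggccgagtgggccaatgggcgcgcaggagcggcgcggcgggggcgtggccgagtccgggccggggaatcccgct
Socs1: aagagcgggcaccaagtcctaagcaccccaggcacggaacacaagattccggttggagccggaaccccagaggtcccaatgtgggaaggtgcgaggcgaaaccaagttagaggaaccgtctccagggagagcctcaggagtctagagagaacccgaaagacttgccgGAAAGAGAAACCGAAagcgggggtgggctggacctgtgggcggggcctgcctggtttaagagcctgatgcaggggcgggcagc
Capitals in Ifng and Irf1 mark the gamma-activated letters TTCNNNGAA, and those in Socs1 mark the interferon-stimulated response core GAAANNGAA, in which overlapping matches form a single run. In Ifng the match TTCAGAGAA began 249 bases before the start, and in Irf1 the match TTCCCCGAA began 90 bases before it. The Socs1 matches GAAAGAGAA and GAAACCGAA began 83 and 77 bases before the start. Of 32851 RefSeq windows of the same length, 7.02% held TTCNNNGAA on either strand and 7.13% held GAAANNGAA. The AP-1 letters TGANTCA (6.75% of windows) and the T-box letters AGGTGTGA (1.12%), also read on both strands, were in none of the 8 windows matched to 7 of the genes, nor were the interferon letters in the windows of Ifngr1, Ifngr2, Jak1 and Jak2 or in a second Irf1 window. A match of letters is not a measured binding site, and the counts do not report on binding.

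Library totals were 30642316 to 35244624 counts with RGX-104 and 33942140 to 37714355 counts in controls. Within the RGX-104 group, replicates 2 and 3 were the closest pair (chi-square per degree of freedom of 1.36), followed by replicates 1 and 4 (2.33). The other RGX-104 pairs lay at 2.54 to 3.54 and control pairs at 3.01 to 6.77, so no pair agreed within counting noise and each library was counted once. Abca1, the LXR target that encodes a cholesterol exporter, averaged 125 ± 6.21 CPM with RGX-104 and 1.72 ± 0.295 CPM in controls (SD, n = 4 each; edgeR adjusted p = 1.16e-27). On a list of 12 LXR target and receptor genes, all tested, edgeR, DESeq2 and limma-voom each called 7 higher and 0 lower, Abcg1 and Mylip among those higher. The 1 gene lower at an unadjusted p under 0.05 was Nr1h2, which encodes a form of LXR (log2 change -0.07, edgeR adjusted p = 0.126). Summed markers of CD8 T cells were 3375 to 3426 CPM with RGX-104 and 3447 to 3564 CPM in controls, with 4 of 9 tested markers lower (Cd247, Cd3e, Cd8b1 and Cd8a) and 1 higher (Lck). Numbered copy rows make the counts of Lck and of Cd2, which was not tested, uncertain. Summed dendritic cell markers, to which Ccr7, also expressed by T cells, gave most, were 731 to 749.6 CPM with RGX-104 and 754 to 800.2 CPM in controls, with Ccl22 higher and Ccr7 lower of 8 tested. Without Ccr7, a sum added after the data were seen, the other markers came to 99.6 to 115 CPM with RGX-104 and 96.2 to 98.97 CPM in controls. Most of this sum came from Cd83 (means of 49.9 CPM with RGX-104 and 47.2 CPM in controls) and Batf3 (39.1 and 37.9 CPM), neither of them called. With Ccr7 left out, all 7 tested markers had a log2 change above 0, with 1 called and 3 at an unadjusted p under 0.05. The median over the 8 tested with Ccr7 was 0.27. Clec9a, Cd209a, Clec10a and Siglech had at most 3 counts in any library and Itgax at most 34, though Clec10a has a numbered copy row that makes its count uncertain. NK cell markers summed to 52.1 to 59.8 CPM with RGX-104 and 54.3 to 58.97 CPM in controls, with Gzma lower of 3 tested. Most of that sum came from Eomes, also listed below as a regulator of Ifng (means of 52.1 CPM with RGX-104 and 48.2 CPM in controls). Ncr1 and Klrb1c, which define NK cells, had at most 1 count. Macrophage and monocyte markers summed to 4.76 to 5.91 CPM with RGX-104 and 5.09 to 6.65 CPM in controls, and Csf1r and Adgre1 had at most 2 counts. CD4 and regulatory T cell markers summed to 86.9 to 94.7 CPM with RGX-104 and 85.5 to 95.5 CPM in controls, with Zbtb7b lower of 3 tested. Ikzf2 (means of 50.4 CPM with RGX-104 and 49.8 CPM in controls) and Ctla4 (35.0 and 36.1 CPM) gave most of it, and Cd4 itself had 3 to 14 counts. The count of Ctla4 is uncertain, since it has a numbered copy row. B cell markers summed to 4.37 to 4.70 CPM with RGX-104 and 3.96 to 5.45 CPM in controls, and Ms4a1 had 0 counts in every library. Of the single tested genes of these last and of the macrophage list, edgeR, DESeq2 and limma-voom called 0, and 0 had an unadjusted p under 0.05. Whether other cells contributed to the values below was not tested.

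The cytokine and its receptor moved in opposite directions. Ifng was higher with RGX-104, while Ifngr1, Ifngr2, Jak2 and Irf1 were lower and Jak1, Socs1 and Ptpn2 did not pass the threshold. A gene is called here when edgeR's quasi-likelihood test gives a Benjamini-Hochberg adjusted p under 0.05 over all tested genes. Of the 8 genes, 1 was called higher, where 4.82% of the 13290 tested genes were, and 4 were called lower, where 4.13% were. All 4 RGX-104 libraries lay above all 4 controls for 1 gene (7.07% of tested genes) and below them for 4 (7.45%). Since the genes were selected with this contrast in view, nothing is read from those shares. The lists of related genes below were also chosen with earlier results of these data known. Their counts are a description, to be set beside the same shares over all tested genes. The median log2 change was -0.16 over the 8 genes and 0.00 over all tested genes. In bulk RNA, fewer cells expressing a gene and less RNA of it per cell cannot be told apart.

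**Figure D1:**
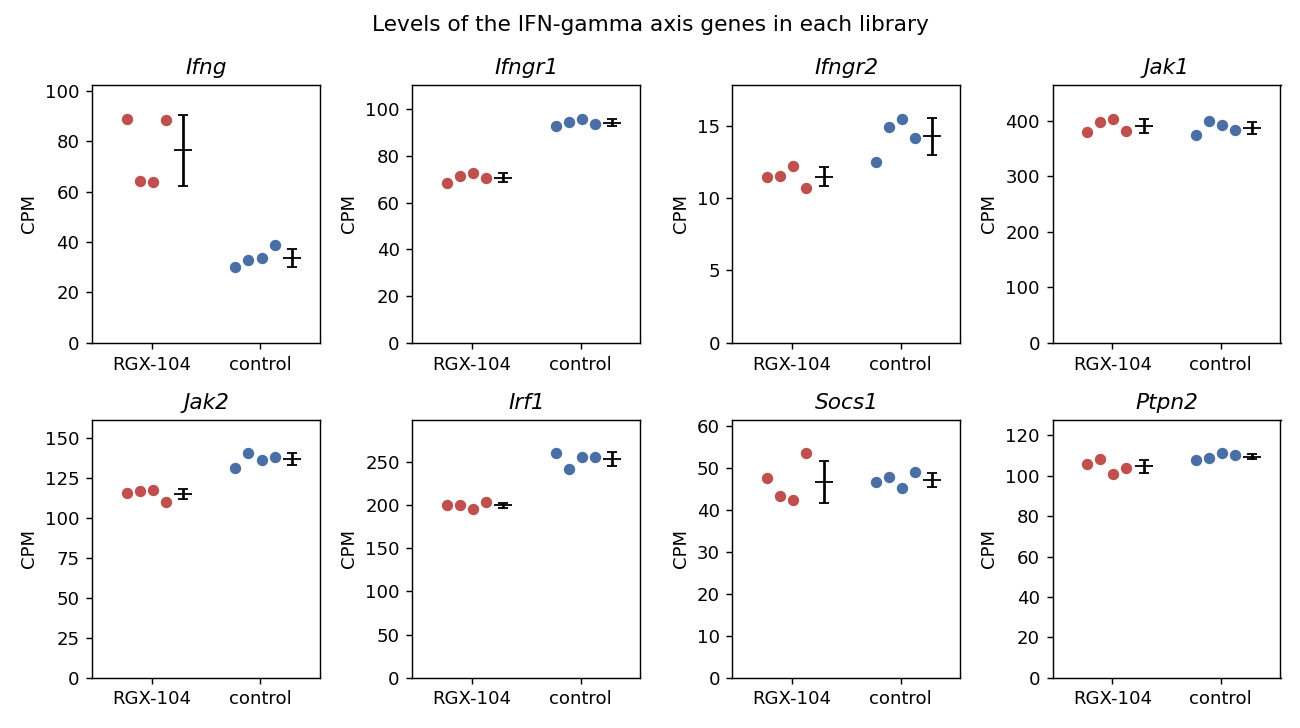
Level of each of the 8 genes in CPM (linear axis from 0) in every library, RGX-104 in red and control in blue, with bars for mean and SD (n = 4 each). Ifng lies at 64.0 to 89.0 CPM with RGX-104 against 30.2 to 38.8 CPM in controls, Ifngr1, Ifngr2, Jak2 and Irf1 lie below their controls, and Jak1, Socs1 and Ptpn2 overlap.

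Ifng lies on chromosome 10 from 118441046 to 118445894 on the plus strand (GRCm38). Its transcript gave 89.0, 64.2, 64.0 and 88.3 CPM for RGX-104 replicates 1 to 4, against 30.2, 32.7, 33.5 and 38.8 CPM in control replicates 1 to 4. CPM are counts scaled to the library size with TMM factors, and the values rest on 2068 to 2810 counts with RGX-104 and 1053 to 1440 in controls. Every RGX-104 library lay far above the highest control. The means were 76.4 ± 14.2 CPM with RGX-104 and 33.8 ± 3.62 CPM in controls (SD), a log2 change of 1.17 ± 0.16 (SE), or 2.25-fold. Exons of Ifng overlap a provisional GENCODE transcript of the same strand, Gm49751, which has no row in the table. Only 18 of the 640 genes called higher, Ifng included, had a log2 change at least this large. The RGX-104 values fell into a pair near 89 CPM (replicates 1 and 4) and a pair near 64 CPM (replicates 2 and 3), which are the same pairs that were closest over all genes. Whether the libraries of a pair had a common source was not tested. With each pair summed into 1 library, the log2 change of Ifng was 1.17 ± 0.17 (SE).

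The receptor chain that binds the cytokine was lower. Ifngr1 (chromosome 10, 19591949 to 19610229, plus strand) gave 68.1, 71.2, 72.4 and 70.5 CPM for RGX-104 replicates 1 to 4, against 92.7, 94.4, 95.9 and 93.7 CPM in controls. Both groups were tight and lay apart, with means of 70.6 ± 1.82 CPM with RGX-104 and 94.2 ± 1.33 CPM in controls (SD, n = 4 each). The log2 change was -0.42 ± 0.03 (SE), a decrease of 25.0%. Of the 549 genes called lower, 89 including Ifngr1 had a log2 change at or below this value.

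The signalling chain was lower as well, from a smaller level. Ifngr2 (chromosome 16, 91547059 to 91564007, plus strand) was at 11.5, 11.5, 12.2 and 10.7 CPM with RGX-104 and 12.5, 14.9, 15.5 and 14.2 CPM in controls. The groups came close without overlapping, since control replicate 1 at 12.5 CPM lay just above RGX-104 replicate 3 at 12.2 CPM. The means were 11.5 ± 0.630 CPM with RGX-104 and 14.2 ± 1.30 CPM in controls (SD), and the log2 change was -0.31 ± 0.07 (SE). Its counts, 340 to 408 with RGX-104 and 435 to 561 in controls, were the fewest of the 8 genes, and its standard error was next largest after that of Ifng.

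Other receptors of the same class II cytokine family gave 0 genes higher and 2 lower of 5 tested by edgeR, with a median log2 change of -0.03. DESeq2 and limma-voom also called 0 higher, and 0 were higher at an unadjusted p under 0.05. Il10ra, the ligand-binding chain for interleukin 10, averaged 206 ± 4.33 CPM with RGX-104 and 235 ± 2.49 CPM in controls, a log2 change of -0.19 ± 0.03 (SE; edgeR adjusted p = 1.97e-05). Ifnar2, a chain of the type I interferon receptor, averaged 46.6 ± 1.503 CPM with RGX-104 and 50.6 ± 0.333 CPM in controls (log2 change -0.12 ± 0.04, SE; edgeR adjusted p = 0.0314). That call was lost with upper quartile scaling, library totals or RGX-104 libraries summed in pairs, and without control replicate 3 or 4 or RGX-104 replicate 1 or 4, and the highest adjusted p over all alternatives was 0.123. Ifnar1, its partner chain, averaged 118 CPM with RGX-104 and 115 CPM in controls and did not pass (edgeR adjusted p = 0.545, log2 change 0.03). Exons of Ifnar2 overlap those of Gm21970, a protein-coding gene of the same strand.

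The kinases of the receptor chains differed from each other. Jak1 (chromosome 4, 101151974 to 101265282, minus strand) was at 379.8, 397, 404 and 381 CPM in RGX-104 libraries and 374, 399, 393 and 384 CPM in controls. The groups overlapped throughout, with means of 391 ± 12.0 CPM with RGX-104 and 387 ± 10.7 CPM in controls (SD, n = 4 each). Its change was 0.81%, with a 95% interval from -3.22% to 5.01%. Exons of Jak1 overlap those of Raver2 on the opposite strand, which had 55 to 88 counts per library. Jak2 (chromosome 19, 29251803 to 29313095, plus strand) was at 116, 117, 117 and 110.1 CPM with RGX-104 and 132, 140.5, 137 and 138 CPM in controls. All RGX-104 libraries lay below all controls, and the log2 change was -0.25 ± 0.03 (SE), a decrease of 15.9%. Within each library the level of Jak1 per kilobase of transcript was 3.48 ± 0.0851 times that of Jak2 with RGX-104 and 2.91 ± 0.0433 times in controls (SD, n = 4 each).

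Among the other kinases and STAT factors, edgeR called 0 higher and 2 lower of 9 tested, and the median log2 change was -0.02. At an unadjusted p under 0.05, 2 were higher, and DESeq2 called 1 and limma-voom 0 of them. Stat4, which carries interleukin 12 signals to Ifng, averaged 218 ± 6.64 CPM with RGX-104 and 246 ± 8.31 CPM in controls, a log2 change of -0.18 ± 0.03 (SE; edgeR adjusted p = 0.000237). Its exons overlap a noncoding transcript of the same strand, Gm28177. The kinase genes Jak3 and Tyk2 did not pass, with log2 changes of -0.02 and 0.08.

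Irf1, the first-wave transcription factor of the response, was also lower. It lies on chromosome 11 from 53770014 to 53778374 on the plus strand, and its window printed above holds the gamma-activated letters. Its level was 201, 199.9, 196 and 203 CPM with RGX-104, against 260.1, 242, 256 and 256 CPM in controls. The groups were separated by a wide gap, with means of 199.8 ± 3.18 CPM with RGX-104 and 254 ± 7.75 CPM in controls (SD, n = 4 each). The log2 change was -0.34 ± 0.03 (SE), a decrease of 21.3%. Exons of Irf1 overlap those of Gm17334 on the opposite strand, which has no row in the table, and the strand setting of the counting is not given in the sources used here.

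Other interferon regulatory factors gave 0 genes higher and 2 lower of 10 tested by edgeR, with a median log2 change of -0.05. None was higher with DESeq2 or limma-voom or at an unadjusted p under 0.05. Irf8, which T cells express after activation, averaged 557 ± 11.1 CPM with RGX-104 and 683 ± 16.8 CPM in controls, a log2 change of -0.29 ± 0.03 (SE; edgeR adjusted p = 1.02e-08). Irf2, which can oppose IRF1 at shared sites, averaged 55.3 ± 4.72 CPM with RGX-104 and 62.1 ± 1.83 CPM in controls, with overlapping groups (edgeR adjusted p = 0.0326). Its log2 change was -0.17 ± 0.05 (SE). Its call was lost with upper quartile scaling, with RGX-104 libraries summed in pairs, and without control replicate 2, 3 or 4 or RGX-104 replicate 1 or 4, and the highest adjusted p over all alternatives was 0.102. Irf9 and Irf4 did not pass, at log2 changes of -0.04 and 0.01.

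Neither inhibitor gene was called. Socs1 (chromosome 16, 10783808 to 10785536, minus strand) was at 47.6, 43.5, 42.3 and 53.6 CPM with RGX-104 and 46.6, 47.8, 45.2 and 49.2 CPM in controls. RGX-104 libraries lay both above and below all controls. The means were 46.7 ± 5.08 CPM with RGX-104 and 47.2 ± 1.70 CPM in controls (SD, n = 4 each), and the change was -1.01%, with a 95% interval from -10.05% to 8.93%. Ptpn2 (chromosome 18, 67665501 to 67724632, minus strand) was at 106, 108, 101 and 104 CPM with RGX-104 and 108, 109, 111 and 110.4 CPM in controls. RGX-104 replicate 2 lay within the range of the controls and the other RGX-104 libraries below it. The change was -4.42%, with a 95% interval from -8.41% to -0.250% before any adjustment for the number of genes, and it was not called.

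Of 17 other inhibitors of JAK-STAT signalling, edgeR called 0 higher and 4 lower, with a median log2 change of -0.01. At an unadjusted p under 0.05, 3 were higher, and DESeq2 called 0 and limma-voom 1 of these. Usp18, which restrains type I interferon receptors, averaged 10.1 ± 0.294 CPM with RGX-104 and 12.4 ± 0.606 CPM in controls, a log2 change of -0.30 ± 0.06 (SE; edgeR adjusted p = 0.00171). Socs5 (-0.17), Ptpn1 (-0.11) and Ptpn11 (-0.11), a SOCS family gene and a pair of phosphatase genes, changed less on the log2 scale (edgeR adjusted p = 0.0213, 0.0170 and 0.0214). The count of genes lower was 2 without control replicate 2, RGX-104 replicate 2 or RGX-104 replicate 3, and 1 with the closest RGX-104 libraries summed in pairs. Socs3 averaged 23.97 CPM with RGX-104 and 25.4 CPM in controls, and Cish, a STAT5 target, 147 CPM with RGX-104 and 137 CPM in controls, and neither passed (edgeR adjusted p = 0.314 and 0.0952). Without RGX-104 replicate 2 Cish was called higher.

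Genes that interferon gamma induces, other than its GTPase families, were lower more often than higher. Of 30 tested, 2 were higher (Nlrc5 and Gch1) and 13 lower, where 4.82% and 4.13% of all tested genes were. The median log2 change was -0.10 against 0.00 over all tested genes. Of the 40 genes listed, 7 antigen processing or presentation genes had numbered copy rows, so their counts are uncertain. Among them Tap1 and Tap2 (0 counts over all libraries), Psmb8 (1), H2-D1 (3) and Tapbp (22) were not tested. Psmb9 and H2-K1 were tested on 176 and 606 counts in total. Cxcl10, a chemokine that draws effector T cells, was at 2.43, 2.40, 2.04 and 2.26 CPM with RGX-104 and 4.24, 4.54, 5.68 and 5.09 CPM in controls. Its log2 change was -1.10 ± 0.12 (SE; edgeR adjusted p = 1.98e-07), at low levels, and its exons overlap those of Art3 on the opposite strand. Serpina3g, a protease inhibitor gene with close paralogs between which reads can be shared, averaged 4.65 ± 0.0579 CPM with RGX-104 and 8.82 ± 0.286 CPM in controls (edgeR adjusted p = 2.35e-09). Fas, the death receptor gene, averaged 21.0 ± 1.20 CPM with RGX-104 and 25.996 ± 0.677 CPM in controls (edgeR adjusted p = 5.42e-05). Wars, Bst2, Parp14, Parp9, Trim21, Psme1, Psmb10 and Ly6e also fell, by 0.10 to 0.23 on the log2 scale, and Irf8 is counted here too. Cd274, which encodes the inhibitory ligand PD-L1, averaged 37.7 CPM with RGX-104 and 40.4 CPM in controls and did not pass (edgeR adjusted p = 0.162), though it was called lower without control replicate 4. The count of genes higher was 1 without control replicate 3 or 4 or RGX-104 replicate 1, 2 or 3.

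**Figure D2:**
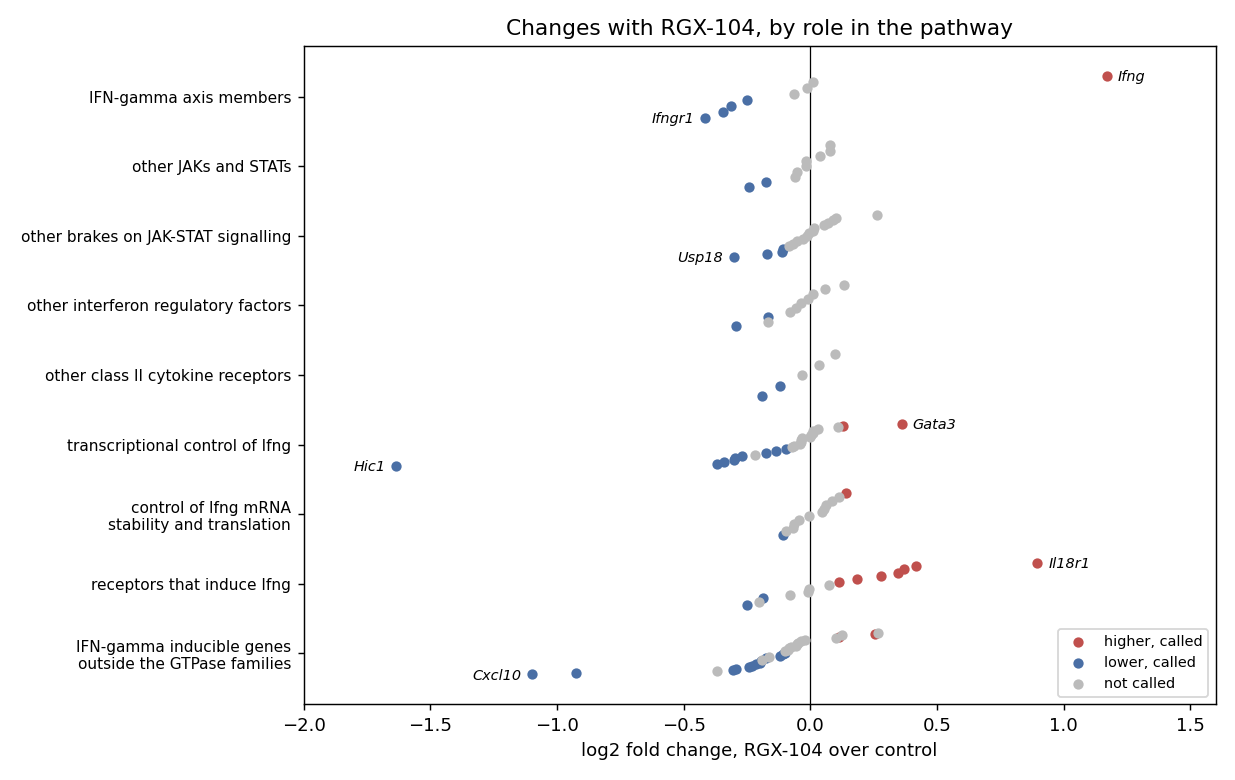
Log2 fold change (RGX-104 over control) of each tested gene, in rows by role, with genes called higher in red, lower in blue and not called in grey. Ifng stands at 1.17 in the top row, with Ifngr1 at -0.42 the lowest of the 8 genes. Among the other lists the receptors that induce Ifng hold 7 of the 12 genes called higher.

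How Ifng itself is controlled was examined through 3 lists. Of 24 tested transcriptional regulators, 2 were higher and 9 lower, where 4.82% and 4.13% of all tested genes were, with a median log2 change of -0.05. Runx3, with 67 counts in total and a numbered copy row that makes them uncertain, and Hlx, with 20 counts, were listed but not tested. Tbx21, which encodes T-bet, a principal activator of Ifng, was at 146, 134, 135 and 143 CPM with RGX-104 and 172, 158, 166 and 175 CPM in controls, a log2 change of -0.27 ± 0.03 (SE; edgeR adjusted p = 6.11e-06). Eomes, the related T-box factor, averaged 52.1 CPM with RGX-104 and 48.2 CPM in controls and did not pass (edgeR adjusted p = 0.214), although it was called higher without RGX-104 replicate 2. Hic1, a transcriptional repressor, averaged 22.3 ± 0.680 CPM with RGX-104 and 69.2 ± 1.46 CPM in controls, a log2 change of -1.63 ± 0.04 (SE; edgeR adjusted p = 1.94e-21). Prdm1 (-0.37), which encodes the repressor BLIMP-1, and Jun (-0.34), a component of AP-1, were lower on the log2 scale (edgeR adjusted p = 0.000208 and 1.76e-07). Gata3, a type 2 factor that restrains Ifng in helper T cells, averaged 13.1 ± 1.18 CPM with RGX-104 and 10.2 ± 0.842 CPM in controls, a log2 change of 0.36 ± 0.07 (SE; edgeR adjusted p = 0.00132). Exons of Jun, Gata3 and Eomes overlap antisense transcripts, and those of Gata3 also overlap a protein-coding gene of the same strand, 9230102O04Rik. The genes called lower thus held the activator gene Tbx21 as well as the repressor genes Hic1 and Prdm1, whose action on Ifng was not tested. Besides Gata3, the gene called higher was Rel (log2 change 0.13 ± 0.03, SE; edgeR adjusted p = 0.00831).

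Regulators of Ifng mRNA stability and translation gave 1 gene higher and 1 lower of 12 tested, with a median log2 change of 0.02. Arid5a, which stabilises cytokine transcripts, was at 125, 122, 122 and 125 CPM with RGX-104 and 109, 113, 111 and 114 CPM in controls (log2 change 0.14 ± 0.03, SE; edgeR adjusted p = 0.00148). Zc3h12d, of a family of RNA-degrading enzymes, averaged 67.1 ± 1.41 CPM with RGX-104 and 72.2 ± 1.78 CPM in controls (log2 change -0.11 ± 0.03, SE; edgeR adjusted p = 0.0356). Its call was lost with upper quartile scaling, library totals or RGX-104 libraries summed in pairs, and without control replicate 3 or 4 or RGX-104 replicate 1, 2 or 4, where 0 genes of the list were lower, and 2 were lower without control replicate 1. Zfp36, Zfp36l1 and Zfp36l2, which bind AU-rich elements of cytokine transcripts, did not pass, with log2 changes of 0.06, -0.10 and -0.04. For Zfp36l1 the 95% interval ran from -0.184 to -0.009 before any adjustment for the number of genes.

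Receptors whose signals induce Ifng gave 7 genes higher and 2 lower of 14 tested, with a median log2 change of 0.09. Over all tested genes 4.82% were higher and 4.13% lower. DESeq2 and limma-voom each called 7 higher and 3 lower. Numbered copy rows make the counts of 4 genes uncertain, namely Il12rb1, Cd28, Icos and Tnfrsf9, of which Icos and Tnfrsf9 were called higher. Il18r1, the chain that binds interleukin 18, was at 6.47, 5.86, 5.35 and 7.04 CPM with RGX-104 and 3.15, 3.57, 3.28 and 3.26 CPM in controls. Its log2 change was 0.90 ± 0.10 (SE; edgeR adjusted p = 4.75e-07). Its partner chain Il18rap averaged 9.14 ± 0.957 CPM with RGX-104 and 7.07 ± 0.949 CPM in controls (log2 change 0.37 ± 0.09, SE; edgeR adjusted p = 0.0121), a call lost without control replicate 3 or RGX-104 replicate 3. Klrk1, the gene of the stress-ligand receptor NKG2D, averaged 85.2 ± 8.91 CPM with RGX-104 and 63.8 ± 5.47 CPM in controls (log2 change 0.42 ± 0.09, SE; edgeR adjusted p = 0.0361). Klrk1 was not called with no filter on low counts, with RGX-104 libraries summed in pairs, or without control replicate 1, 2 or 4 or RGX-104 replicate 2, 3 or 4. Icos, a costimulatory receptor with a numbered copy row that makes its count uncertain, also rose (0.35 on the log2 scale). Il12rb2, the signalling chain for interleukin 12, averaged 418 ± 14.4 CPM with RGX-104 and 498 ± 12.7 CPM in controls, and fell by 0.25 on the log2 scale (edgeR adjusted p = 5.96e-07). Its exons overlap those of Serbp1 on the opposite strand. The count of genes higher was 4 without RGX-104 replicate 3. Over all pathway lists, each gene counted once and the 8 genes left out, 12 of 115 were higher, 32 lower and 71 not called, with a median log2 change of -0.04.

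Levels between genes were compared per kilobase of the longest GENCODE transcript. Irf1 stood at the top in both groups, with 93.5 ± 1.49 CPM per kilobase with RGX-104 and 119 ± 3.63 in controls (SD, n = 4 each). Jak1 came next, at 79.6 ± 2.45 CPM per kilobase with RGX-104 and 79.0 ± 2.19 in controls. Ifng followed with RGX-104, at 63.2 ± 11.7 CPM per kilobase, but in controls, at 27.99 ± 3.00, it stood below Ifngr1 and Ptpn2 and its libraries overlapped those of Jak2. Ptpn2 stood at 39.3 ± 1.21 CPM per kilobase with RGX-104 and 41.1 ± 0.549 in controls. Ifngr1 stood below Ptpn2 with RGX-104, at 33.4 ± 0.860 CPM per kilobase, and above it in controls, at 44.6 ± 0.631. Jak2 was lower, at 22.9 ± 0.663 CPM per kilobase with RGX-104 and 27.2 ± 0.756 in controls. Socs1 was lower still, at 16.1 ± 1.75 CPM per kilobase with RGX-104 and 16.2 ± 0.586 in controls. The place of Socs1 is uncertain, since its longest transcript of 2908 bases exceeds its RefSeq span of 1729 bases, which would give it 27.0 ± 2.94 CPM per kilobase with RGX-104 and 27.3 ± 0.985 in controls. Ifngr2 was lowest, at 3.09 ± 0.170 CPM per kilobase with RGX-104 and 3.84 ± 0.351 in controls. Apart from Ifng and Jak2 in controls, no neighbours in this order by transcript length had overlapping libraries.

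**Figure D3:**
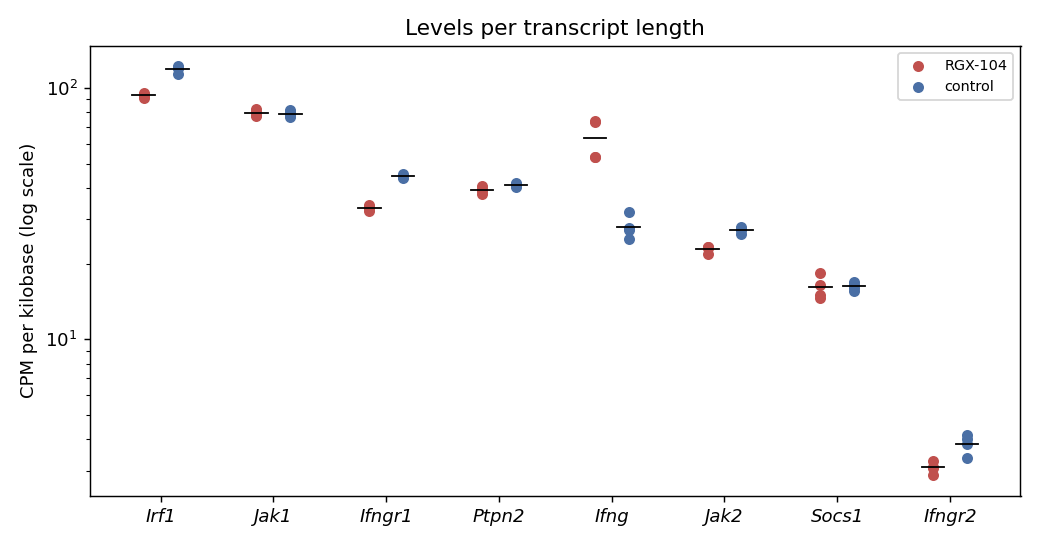
CPM per kilobase of the longest transcript (log axis) for each gene in every library, RGX-104 in red and control in blue, with lines for group means (n = 4 each). Irf1 and Jak1 are highest, Ifngr2 is lowest at about 3 to 4, and Ifng stands above Ifngr1 with RGX-104 but below it in controls.

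The balance of ligand and receptor transcripts differed accordingly. Per kilobase, the ratio of Ifng to Ifngr1 was 1.90 ± 0.392 with RGX-104 and 0.628 ± 0.0667 in controls, with libraries of 1.54 to 2.28 with RGX-104 and 0.570 to 0.724 in controls (SD, n = 4 each). The receptor chains kept closer proportions, with an Ifngr1 to Ifngr2 ratio of 10.8 ± 0.551 with RGX-104 and 11.7 ± 0.969 in controls, and the libraries of the groups overlapped. The ratio of the cytokine to its target Irf1 was 0.675 ± 0.117 with RGX-104 and 0.236 ± 0.0257 in controls. These ratios follow from the levels above and are a description.

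The spread among libraries of a group is likewise a description, and it was widest for Ifng and Socs1 with RGX-104. With RGX-104 the coefficient of variation of Ifng was 18.5%, and 99.9% of the 2074 tested genes within 0.5 log2 CPM of its level had a lower one (median 3.04%). That of Socs1 was 10.9%, above 99.5% of 2068 genes of like level. In controls the values were 10.7% for Ifng and 3.61% for Socs1, against medians of 3.52% and 3.65% for genes of like level. The coefficient of variation of Irf1 was 1.59% with RGX-104 and 3.05% in controls, and the other 5 genes lay between 2.57% and 5.49% with RGX-104 and between 1.34% and 9.13% in controls.

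Ifng and Socs1 deviated in the same direction in RGX-104 libraries. Ifng lay at 16.5%, -15.9%, -16.2% and 15.6% from its group mean in RGX-104 replicates 1 to 4, and Socs1 at 1.86%, -6.97%, -9.47% and 14.6%. In controls Ifng lay at -10.7%, -3.22%, -0.865% and 14.8% and Socs1 at -1.23%, 1.29%, -4.27% and 4.21%. Pearson's r between their log2 CPM less the group mean was 0.82 over the 8 libraries, where both genes are read from the same libraries, and it is given with no p. By the same measure r was 0.80 for Ifngr1 with Jak1, 0.82 for Ifngr2 with Jak1, 0.80 for Ifngr2 with Jak2 and -0.79 for Irf1 with Jak1. These pairs were picked as the largest by absolute r among all pairs of the 8 genes. Genes outside the pathway reached higher r with Ifng (Polr2f, 0.987), so no shared control is read from such values.

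**Figure D4:**
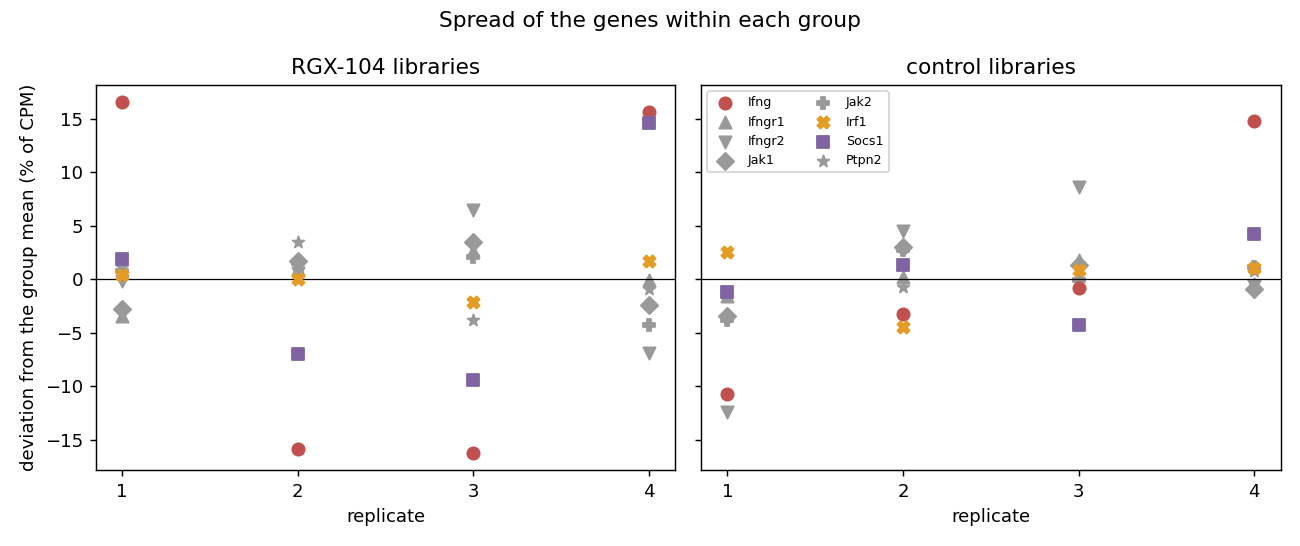
Deviation of each gene from its group mean, in percent of CPM, in RGX-104 replicates (left) and control replicates (right), with a symbol for each gene. Ifng lies about 16% above its mean in RGX-104 replicates 1 and 4 and about 16% below it in replicates 2 and 3, and Socs1 reaches 14.6% in replicate 4.

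Across the 9904 genes ranked, all with a mean log2 CPM above 1, the within-group pattern most like that of Ifng was that of Polr2f (r = 0.987 over 8 libraries), which encodes an RNA polymerase subunit. Aebp2 (0.982), Abhd13 (0.981) and Smad7 (0.981) came next by Pearson's r. The genes most like Irf1 were Cnpy2 (0.978), Trappc2l (0.967), Mrpl37 (0.965), Stx6 (0.956) and Crcp (0.952). Of the 10 genes ranked highest for either, edgeR, DESeq2 and limma-voom each called 0 between RGX-104 and control, and 0 had an unadjusted p under 0.05. Since group means were taken off first, the likeness concerns the spread within groups only. With 8 libraries and many genes ranked, values of this size are the top of a long list.

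The protein-coding RefSeq genes nearest to Ifng and to Irf1 on each side, overlapping ones left aside, were not called or had too few counts for testing. On chromosome 10, Dyrk2, 409708 bases after Ifng, averaged 54.3 ± 1.01 CPM with RGX-104 and 54.5 ± 1.83 CPM in controls and was not called (edgeR adjusted p = 0.959). Iltifb, an interleukin 22 family gene 146008 bases before Ifng, had at most 1 count per library. Ifngas1, a noncoding gene 56141 bases after Ifng whose transcript is linked to Ifng in helper T cells, was looked at after its values were known and had 1 to 6 counts. Near Irf1 on chromosome 11, Slc22a5, 86168 bases after it, averaged 15.6 ± 0.954 CPM with RGX-104 and 16.5 ± 0.680 CPM in controls and was not called (edgeR adjusted p = 0.433). Il5, a type 2 cytokine gene 44911 bases before Irf1, had 1 to 7 counts.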

How the data were processed

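RNA sequencing data of 8 samples of purified OT-I cells were analysed, 4 with RGX-104 and 4 with DMSO. The values are raw counts of reads for each gene, as the authors deposited them, without any scaling. Per the labels' protocols, total RNA was isolated with a Norgen kit and libraries were made with Illumina TruSeq. The build was GRCm38, and DESeq2 1.4, R 4.1.0, STAR 2.7.5 and cutadapt 2.10 are listed as tools, per the submitters' processing notes. Neither the counting tool nor its annotation or use of strand is given in the sources used here, so reads of overlapping genes on opposite strands cannot be told apart. Control columns carried sample numbers of their labels, whereas RGX-104 columns showed the group but not the sample and are numbered here by column. The table held no other per-sample columns.

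Counts were tested in R 4.3.3 with edgeR 4.0.16 and its quasi-likelihood test (robust fit, TMM scaling, treatment as the only term). The filterByExpr function (minimum count 10, minimum total 15) left 13290 of 41730 genes, and p-values were adjusted by Benjamini-Hochberg over all of them. Standard errors came from the F statistic. The fitting was tested on simulated data. Alternatives were DESeq2 1.42.0, limma-voom of limma 3.58.1 with sample weights, other scalings and filters, the closest RGX-104 libraries summed in pairs, and each library left out.

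The 8 genes, the pathway lists and the markers were chosen with earlier results of these data known. Genes named are the 8, the called genes with the 4 largest changes in each list at mean log2 CPM of at least 1, a set of pathway genes whatever their result, the 5 genes most like Ifng and the 5 most like Irf1 within groups, and the nearest protein-coding neighbours of both. A few other list members serve as examples and were picked with their values known. Some genes that these rules name are not reported here. Gene positions and sequences are from RefSeq for GRCm38 (promoter windows GRCm38.p6), and transcript lengths and overlaps from GENCODE vM21. Library totals of 30642316 to 37714355 counts set the precision.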

Additional observations from a re-analysis of the deposited data

Results flagged for a closer look

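In 108 groups of 4 libraries checked, from the 8 genes and the other genes named or listed, 3 held a value that lay far from the other 3 libraries of its group. Chance flags about 5% of such groups. For Socs5, an inhibitor of cytokine signalling, control replicate 2 gave 24.7 CPM and the other controls 22.8 to 22.9 CPM. For Ptpn11, a phosphatase gene, RGX-104 replicate 3 gave 185 CPM and the other RGX-104 libraries 176 to 177 CPM. Cnpy2, the gene whose spread was most like that of Irf1, had 37.7 CPM in control replicate 2, and the other controls 40.9 to 41.3 CPM. None of the 8 genes of the interferon gamma axis held such a value in either group.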

How the results depend on the processing

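Ifng was called higher and Ifngr1, Ifngr2, Jak2 and Irf1 lower under each of the 16 alternatives. Jak1, Socs1 and Ptpn2 were called under none. The call of Ifng came nearest to the threshold with the closest RGX-104 libraries summed in pairs. The alternatives reuse the libraries whose results were known when these genes were chosen. Their agreement therefore describes only how the calls depend on processing and is not independent evidence of a change. Log2 changes ranged from 1.09 to 1.247 for Ifng, -0.43 to -0.40 for Ifngr1, -0.37 to -0.27 for Ifngr2, -0.27 to -0.23 for Jak2, -0.37 to -0.33 for Irf1 and -0.08 to -0.05 for Ptpn2. Near 0, the sign of 2 genes depended on the libraries, with Jak1 at -0.0060 to 0.026 and Socs1 at -0.085 to 0.029 when each library was left out in turn. With the closest RGX-104 libraries summed in pairs, which leaves 2 RGX-104 libraries, 358 genes were higher and 264 lower, against 640 and 549, and 21 pathway list genes were lower, against 32. Leaving out each library gave 462 to 719 genes higher and 377 to 621 lower. Other scalings moved the median log2 change of all genes by at most 0.0119. No paired analysis was possible because the labels give the groups no shared replicate numbers. Ifngr2 rests on the fewest counts.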
